A study of Mus musculus with 12 samples.

Results

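The expression of 10 genes that carry the signals of vessel growth was followed in mouse muscle: the secreted factors Vegfa, Vegfb, Angpt1, Angpt2 and Fgfbp1, and the receptors Flt1, Kdr, Nrp1, Tek and Tie1. They were found by gene symbol, and all 10 were present among the 17752 genes listed. All 10 also reached a mean of 0.5 FPKM over the libraries, as did 12744 genes in all. FPKM, a fragment count per kilobase of transcript that is scaled by depth, corrects a level for both. Below, 5 members are grouped as ligands, with the FGF carrier Fgfbp1 counted among them, and 5 as receptors.

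RNA was sequenced from extensor digitorum longus (EDL), a fast-twitch hind limb muscle, in 4 groups of 3 libraries. The labels give a control and an Nrip1 knockout genotype, each sedentary or trained. In the study's methods, male mice carried floxed Nrip1 (C57BL/6J) crossed to C57BL/6JN mice, whose Cre, driven by the muscle creatine kinase promoter, deleted it in skeletal muscle and heart, and Cre-negative littermates served as controls. The deletion was therefore directed to muscle fibers and not to endothelium. Training was voluntary wheel running that started at 8 weeks of age. In the study's methods it lasted 8 weeks, and the wheels were taken out of the cages days before any endpoint. The genotypes are called labelled WT and labelled strNrip1-/- here. Nrip1, which encodes the nuclear receptor corepressor RIP140, went against its labels: it lay between 2.53 and 4.76 FPKM in the 6 libraries labelled WT and between 14.9 and 20.7 FPKM in the 6 labelled strNrip1-/-. In the study's methods the deleted part begins in the last intron, and the gene-level value also counts earlier exons. Each direction given for genotype rests on the labels, and the cause was not tested.

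The FPKM values corresponded to between 20.1 M and 29.1 M fragments per library (M, 1e6), as estimated from the spacing of low values. The labels do not say that the 3 libraries of a group came from separate mice, so p-values measure the spread between these libraries, which may be technical. Muscle was sequenced whole, and fewer cells of a type and less RNA per cell cannot be told apart.

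VEGF-A drives endothelial growth, migration and permeability through the receptor VEGFR2, encoded by Kdr. VEGFR1, encoded by Flt1, binds VEGF-A and VEGF-B tightly but signals weakly, and a soluble form acts as a decoy. The angiopoietins act through TIE2, encoded by Tek, where angiopoietin-1 stabilizes vessels and angiopoietin-2 commonly opposes it. In skeletal muscle the fibers are a major source of VEGF-A, whereas its receptors lie mainly on the endothelium of capillaries.

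The levels of the members spanned a wide range, and the ligands stood at both ends of it. Vegfa had the highest mean over the 12 libraries, 156.6 FPKM (range 105.3 to 184.2), followed by Vegfb with 115.5 FPKM (range 94.9 to 142.3). These levels exceeded those of 97.4% and 96.6% of all genes. The 4 receptors Flt1 (mean 13.5 FPKM), Tie1 (11.4 FPKM), Kdr (9.38 FPKM) and Nrp1 (9.21 FPKM) came next. Fgfbp1 (6.13 FPKM), Tek (4.97 FPKM) and Angpt1 (2.66 FPKM) were lower still. Angpt2 was lowest, with 0.977 FPKM, and rested on an estimated 38 to 145 fragments per library, against 9485 to 15379 for Vegfa. Neighbours in this order overlapped in their ranges over the 12 libraries, except that Vegfb lay wholly above Flt1 and Tek wholly above Angpt1.

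**Figure D1:**
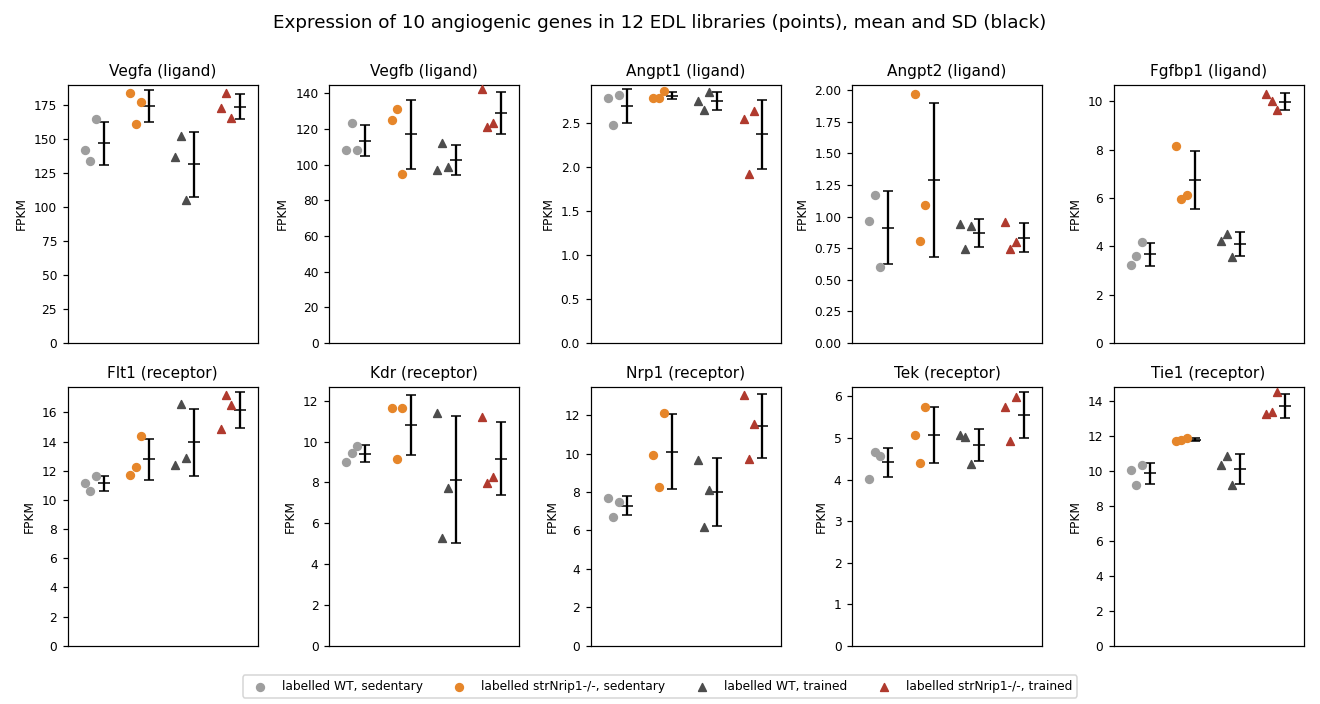
FPKM (linear axes from 0) of the 5 ligands (top) and 5 receptors (bottom) in the 4 groups; each point is a library, and the black mark and bar give the group mean and SD (n = 3). Fgfbp1 and Tie1 were higher in every library labelled strNrip1-/- than in every library labelled WT, whereas the Kdr points of the trained libraries labelled WT spread from 5.26 to 11.4 FPKM.

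The sequence just upstream of the transcription start is shown for Fgfbp1, Tie1 and Vegfa, because these are the ligands called between genotypes and the receptor with the smallest p-value. Each is the 250 bases before the RefSeq start on GRCm38.p6, 5′ to 3′ on the gene's strand, at chr5:43981800-43982049 (minus strand) for Fgfbp1, chr4:118489850-118490099 (minus strand) for Tie1 and chr17:46032378-46032627 (minus strand) for Vegfa. Capitals mark GGGCGG, the GC box bound by SP-family factors.
Fgfbp1: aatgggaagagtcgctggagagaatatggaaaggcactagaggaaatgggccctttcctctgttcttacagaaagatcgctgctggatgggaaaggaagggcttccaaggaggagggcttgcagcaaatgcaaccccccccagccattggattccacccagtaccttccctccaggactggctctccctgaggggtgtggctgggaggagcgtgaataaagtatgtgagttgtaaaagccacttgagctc
Tie1: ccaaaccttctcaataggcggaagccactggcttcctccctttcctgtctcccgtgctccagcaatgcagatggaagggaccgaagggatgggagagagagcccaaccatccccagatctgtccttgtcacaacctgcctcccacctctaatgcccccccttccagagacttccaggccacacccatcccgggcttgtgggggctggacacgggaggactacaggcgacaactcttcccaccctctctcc
Vegfa: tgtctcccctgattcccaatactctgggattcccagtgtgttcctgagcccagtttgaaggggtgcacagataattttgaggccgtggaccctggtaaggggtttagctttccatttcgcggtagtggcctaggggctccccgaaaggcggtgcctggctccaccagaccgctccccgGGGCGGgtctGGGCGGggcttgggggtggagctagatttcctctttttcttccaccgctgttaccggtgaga
Vegfa held GGGCGG at 72 and 62 bases before its start, and neither Fgfbp1 nor Tie1 held it on either strand. Among the 8 members with a RefSeq entry, GGGCGG was also found for Vegfb, Flt1, Kdr and Nrp1 and was not found for Tek, while 32.7% of 32851 mouse promoter windows of this length held it. TNAAGGTCA, the extended binding site of the estrogen-related receptors that RIP140 is known to restrain, was in none of these windows, and 1.14% of all windows held it. ACGTG, the core of the hypoxia response element, was found only for a second Vegfa start inside the gene, against 16.6% of all windows. These matches describe letters in a short window and say nothing of binding.

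The first question was which angiogenic genes differ between the genotypes. Averaged over sedentary and trained libraries, 4 of the 10 members were called higher in libraries labelled strNrip1-/- and none lower. These were the ligands Fgfbp1 and Vegfa and the receptors Nrp1 and Tie1. Of all genes tested, 4.9% were called higher in this comparison. The members were chosen with earlier results of these libraries known. The study had already reported Fgfbp1, Tie1 and Vegfa as raised in them, so setting these shares side by side does not test the list. A call required an adjusted p-value under 0.05 (limma, Benjamini-Hochberg over 12744 genes) and a fold change above 1.2 on the log2(FPKM + 0.5) scale, which understates changes of low genes. The median log2 fold change was 0.18 over the ligands and 0.20 over the receptors, against 0.00 (0.0034) over all genes.

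Within each training state fewer members passed. In sedentary libraries Fgfbp1 alone was called higher, where 1.92% of all genes were, and 3 members had an unadjusted p-value under 0.05, as had 16.3% of all genes. In trained libraries Fgfbp1 and Tie1 were called higher, where 3.21% of all genes were, and 5 members had an unadjusted p-value under 0.05, as had 21.1% of all genes. The log2 fold change was above 0 for 10 of 10 members in sedentary libraries and for 8 of 10 in trained libraries. When libraries were instead scaled to an equal sum of FPKM, which moved the median of all genes by -0.14 in the sedentary comparison, Vegfb (-0.12) and Angpt1 (-0.08) turned below 0 there. Counted without a model, 4 members in sedentary libraries (Fgfbp1, Flt1, Nrp1 and Tie1) had every library labelled strNrip1-/- above every library labelled WT, as did 9.79% of all genes. In trained libraries 5 members did so (Vegfa, Vegfb, Fgfbp1, Nrp1 and Tie1), as did 13.9% of all genes. Across both states, Fgfbp1 and Tie1 separated all 6 libraries of each labelled genotype, as did 2.97% of all genes.

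**Figure D2:**
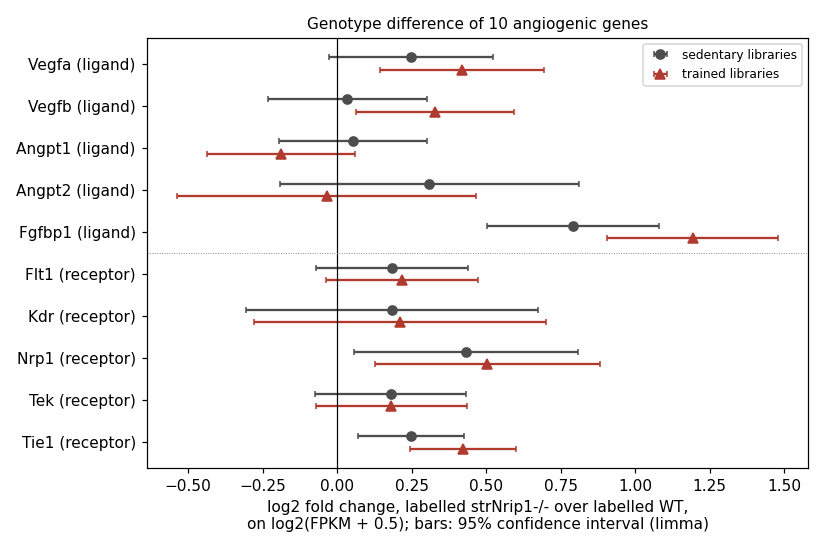
Genotype difference of each member as a log2 fold change, labelled strNrip1-/- above 0, on log2(FPKM + 0.5), in sedentary (circles) and trained (triangles) libraries, with 95% confidence intervals from limma; ligands stand above the dotted line and receptors below it. Fgfbp1 stands farthest from 0 in both states (0.79 and 1.19), and the intervals of Angpt1, Angpt2, Flt1, Kdr and Tek include 0 in both.

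Fgfbp1 showed the largest genotype difference of the 10. It encodes a secreted carrier that frees fibroblast growth factors from heparan sulfate in the matrix. The gene (ENSMUSG00000048373) lies on chromosome 5, from 43978858 to 43981779 on the minus strand (GRCm38, as are all gene coordinates here), and its longest coding transcript has 1 exon. Its levels were 3.25, 3.58 and 4.19 FPKM in labelled WT sedentary libraries and 8.14, 5.97 and 6.14 FPKM in labelled strNrip1-/- sedentary libraries. In trained libraries they were 4.23, 4.51 and 3.57 FPKM for labelled WT and 10.3, 9.996 and 9.64 FPKM for labelled strNrip1-/-. The lowest of the 6 libraries labelled strNrip1-/- thus stood above the highest of the 6 labelled WT, and the 3 trained ones stood above all others. The log2 fold change was 0.79 (SE 0.131, adjusted p = 0.00806) in sedentary libraries, 1.19 (SE 0.131, adjusted p = 0.000752) in trained libraries and 0.99 (SE 0.0927, adjusted p = 7.23e-05, limma) averaged over both. The last corresponds to 1.99-fold. Fitted on the 6 sedentary libraries alone, the sedentary difference was of equal size but missed the threshold (adjusted p = 0.0621).

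Vegfa, the main angiogenic ligand (ENSMUSG00000023951, chromosome 17, 46016993 to 46032369, minus strand), was higher in libraries labelled strNrip1-/- by a smaller amount. Among sedentary libraries the 3 labelled WT gave 142, 134 and 165 FPKM and the 3 labelled strNrip1-/- gave 184, 161 and 177 FPKM. Among trained libraries the former gave 137, 152 and 105 FPKM and the latter 173, 184 and 165 FPKM. The sedentary groups overlapped by a single labelled WT library, and the trained groups did not overlap. The averaged log2 fold change was 0.33 (SE 0.0886, adjusted p = 0.0337), while neither state alone passed (sedentary 0.25, adjusted p = 0.364, and trained 0.42, adjusted p = 0.0770). This averaged call was lost when any of 8 of the 12 libraries was left out in turn, and over all 12 of these fits the log2 fold change ran from 0.26 to 0.39. Vegfa has 8 annotated coding transcripts, and the gene-level values do not separate its isoforms.

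Vegfb, a VEGFR1 ligand better known for metabolic and cardiac roles than for vessel growth (ENSMUSG00000024962, chromosome 19, 6982473 to 6987651, minus strand), did not pass in any genotype comparison. Its sedentary means were 113 ± 8.81 FPKM for labelled WT and 117 ± 19.4 FPKM for labelled strNrip1-/-, and its trained means were 103 ± 8.33 and 129 ± 11.7 FPKM (SD, n = 3). The trained groups did not overlap, with a log2 fold change of 0.33 (95% interval 0.06 to 0.59, adjusted p = 0.145). The sedentary groups overlapped, at 0.03 (95% interval -0.23 to 0.30).

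The angiopoietins were low and gave no call. Angpt1, the TIE2 agonist made largely by cells around the vessel (ENSMUSG00000022309, chromosome 15, 42424723 to 42676977, minus strand), lay between 2.47 and 2.86 FPKM in the 9 libraries other than labelled strNrip1-/- trained. In that group it was 2.55, 1.92 and 2.64 FPKM, below every labelled WT trained library, at a log2 fold change of -0.19 (95% interval -0.44 to 0.06, adjusted p = 0.384). Its exons overlap those of a gene on the opposite strand, Gm17473, over 737 bases, and the library kit does not mark strand. Angpt2, the context-dependent TIE2 antagonist (ENSMUSG00000031465, chromosome 8, 18690263 to 18741562, minus strand), ranged from 0.602 to 1.97 FPKM with a coefficient of variation of 47.1% in labelled strNrip1-/- sedentary libraries. The 95% interval of its sedentary genotype difference ran from -0.19 to 0.81.

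Among the receptors of VEGF, Nrp1 gave a call and Flt1 and Kdr did not. Nrp1 encodes neuropilin-1, a co-receptor that presents VEGF-A to VEGFR2 and also binds class 3 semaphorins (ENSMUSG00000025810, chromosome 8, 128358604 to 128503363, plus strand). It stood at 7.67, 6.72 and 7.46 FPKM in labelled WT sedentary libraries against 9.93, 8.25 and 12.1 FPKM in labelled strNrip1-/- sedentary libraries. In trained libraries the values were 9.70, 6.17 and 8.11 FPKM against 13.0, 9.73 and 11.6 FPKM. The groups did not overlap within either state. The highest labelled WT trained library, at 9.70 FPKM, came close to the lowest trained one labelled strNrip1-/- (9.73 FPKM). It exceeded the lowest sedentary one (8.25 FPKM), so the genotypes overlapped across states. The averaged log2 fold change was 0.47 (SE 0.121, adjusted p = 0.0302), with 0.43 (adjusted p = 0.233) in sedentary and 0.50 (adjusted p = 0.112) in trained libraries. Like that of Vegfa, the averaged Nrp1 call was lost when any of 8 of the 12 libraries was left out in turn, and over all 12 of these fits the log2 fold change ran from 0.39 to 0.54.

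Flt1 (ENSMUSG00000029648, chromosome 5, 147561604 to 147726011, minus strand) averaged 11.2 ± 0.510 FPKM in labelled WT sedentary and 12.8 ± 1.42 FPKM in labelled strNrip1-/- sedentary libraries (SD, n = 3). In trained libraries it averaged 13.9 ± 2.28 and 16.2 ± 1.21 FPKM. The averaged genotype log2 fold change was 0.20 (95% interval 0.02 to 0.38, adjusted p = 0.160), and it passed only when labelled WT trained replicate 2 was left out (0.26, adjusted p = 0.0354). Kdr (ENSMUSG00000062960, chromosome 5, 75932827 to 75978458, minus strand) gave 0.20 as well, but with a wider interval of -0.15 to 0.54 (adjusted p = 0.512). Its spread came mostly from the trained libraries labelled WT, at 11.4, 5.26 and 7.72 FPKM, and leaving out single libraries moved the trained genotype difference between -0.05 and 0.47.

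Of the TIE receptors, Tie1 was called and Tek was not. Tie1 encodes an orphan receptor that pairs with TIE2 and modulates its signal (ENSMUSG00000033191, chromosome 4, 118471191 to 118490061, minus strand). It was measured at 10.1, 9.18 and 10.3 FPKM in labelled WT sedentary libraries and at 11.7, 11.8 and 11.9 FPKM in labelled strNrip1-/- sedentary libraries. In trained libraries it was 10.3, 10.9 and 9.19 FPKM for labelled WT and 13.2, 13.4 and 14.5 FPKM for labelled strNrip1-/-. No library labelled WT reached the lowest library labelled strNrip1-/-. The log2 fold change was 0.25 (SE 0.0812, adjusted p = 0.144) in sedentary libraries, 0.42 (adjusted p = 0.0125) in trained libraries and 0.33 (SE 0.0574, adjusted p = 0.00350, limma) averaged over both. The trained call was lost without labelled WT trained replicate 3 (adjusted p = 0.0530), without labelled strNrip1-/- trained replicate 3 (adjusted p = 0.0648) and when the 6 trained libraries were fitted alone (adjusted p = 0.0567). The averaged call held without any single library.

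Tek, the angiopoietin receptor itself (ENSMUSG00000006386, chromosome 4, 94739289 to 94874976, plus strand), ranged from 4.02 to 5.08 FPKM over the libraries labelled WT and from 4.41 to 5.98 FPKM over those labelled strNrip1-/-. The genotype log2 fold change was 0.18 in both states and 0.18 averaged (95% interval 0.00 to 0.36, adjusted p = 0.207). The ratio of Tie1 to Tek overlapped between the sedentary groups. In trained libraries it was 2.03 to 2.16 for labelled WT and 2.30 to 2.72 for labelled strNrip1-/-, without overlap.

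Because the receptors lie largely on endothelium, they were set beside 18 other endothelial markers such as Pecam1, Cdh5 and Egfl7. All 18 had an averaged genotype log2 fold change above 0, with a median of 0.19. Of these, 2 (Cdh5 and Sox17) were called higher, where 4.9% of all genes were. The summed level of all 18 in sedentary libraries was 216.8 to 224.6 FPKM for labelled WT against 224.5 to 260.4 FPKM for labelled strNrip1-/-. In trained libraries it was 197.9 to 225.6 against 244.7 to 255.7 FPKM. None of the 18 was under 0.5 FPKM. Within each state 17 of 18 lay above 0 for genotype. Under the equal sum of FPKM, 10 of 18 lay above 0 in sedentary libraries and 18 of 18 in trained libraries. Relative to the mean log2 level of these markers, the genotype difference was 0.00 (-0.0042) for Flt1, -0.01 for Kdr and -0.02 for Tek, against 0.13 for Tie1 and 0.26 for Nrp1. These relative levels overlapped between genotypes for Nrp1 in both states and for Tie1 in sedentary libraries, and were apart for Tie1 in trained libraries. With group means removed, the receptors correlated with the marker mean over the 12 libraries at -0.11 (Flt1), 0.06 (Kdr) and -0.20 (Nrp1). For Tek this was 0.09 and for Tie1 0.31. The part of these markers in the receptor results was not tested.

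**Figure D3:**
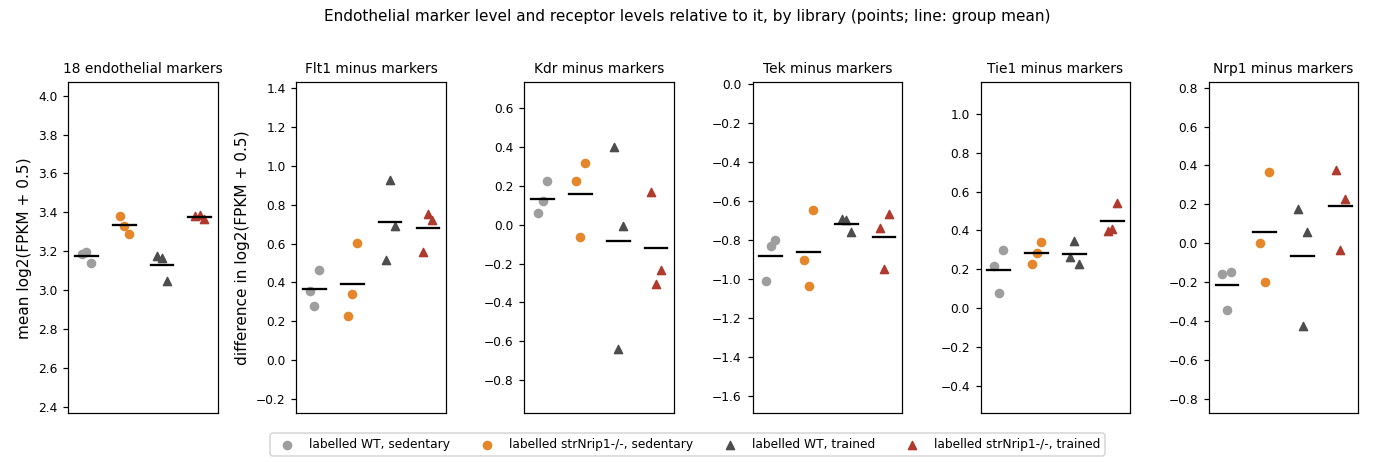
Mean log2(FPKM + 0.5) of 18 endothelial markers by library (left), and the log2 level of each receptor minus that mean (other panels), all on axes of the same span; points are libraries and lines are group means (n = 3). The marker mean was higher in every library labelled strNrip1-/- than in every library labelled WT of the same training state, and Tie1 stayed above in trained libraries after the mean was taken off.

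The second question was how training bears on these genes. No member was called for training in either labelled genotype. Of all genes, 0.0% were called in libraries labelled WT and 0.0% in libraries labelled strNrip1-/- by limma, with 1061 and 1544 of 12744 genes, respectively, at an unadjusted p-value under 0.05. Among members, 1 reached an unadjusted p-value under 0.05 in libraries labelled WT (Flt1) and 3 did in those labelled strNrip1-/- (Fgfbp1, Flt1 and Tie1). With the genotypes averaged, limma called 0.118% of all genes and no member, and 2 members had an unadjusted p-value under 0.05 (Flt1 and Fgfbp1), as had 1466 genes.

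Flt1 had the smallest unadjusted p-value for training of the 10 members when genotypes were averaged. In labelled WT it went from 11.1, 10.6 and 11.7 FPKM in sedentary to 12.4, 16.6 and 12.9 FPKM in trained libraries. In labelled strNrip1-/- it went from 11.7, 12.3 and 14.4 FPKM to 14.8, 17.2 and 16.5 FPKM. Trained and sedentary libraries did not overlap within either labelled genotype. The log2 fold changes were 0.30 (95% interval 0.04 to 0.55, adjusted p = 0.528) and 0.33 (95% interval 0.08 to 0.59, adjusted p = 0.306), so neither passed after adjustment. The only member whose training groups did not overlap in libraries labelled WT was Flt1, where 14.3% of all genes did not overlap in one direction or the other.

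In libraries labelled strNrip1-/-, Fgfbp1, Flt1 and Tie1 were higher and Angpt1 lower in all trained than in all sedentary libraries, and 16.9% of all genes did not overlap. Fgfbp1 had a training log2 fold change of 0.54 (95% interval 0.26 to 0.83, adjusted p = 0.200) there and of 0.14 (95% interval -0.15 to 0.43, adjusted p = 0.835) in libraries labelled WT. Scaled to an equal sum of FPKM, which moved the median of all genes by 0.16 in this comparison, the former was called (0.71, adjusted p = 0.0415). The genotype by training interaction of Fgfbp1, which tests the difference between these, was 0.40 (SE 0.185, adjusted p = 0.640). No member had an interaction at an unadjusted p-value under 0.05, where 989 genes did. Over all genes 0.0% were called for the interaction.

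Vegfa and Kdr had no training difference that passed. For Vegfa the log2 fold change was -0.17 (95% interval -0.45 to 0.10) in labelled WT and 0.00 (95% interval -0.28 to 0.27) in labelled strNrip1-/- libraries. For Kdr it was -0.26 (95% interval -0.75 to 0.23) and -0.24 (95% interval -0.73 to 0.25). The Kdr intervals are wide enough that its level was not shown to be unaffected.

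**Figure D4:**
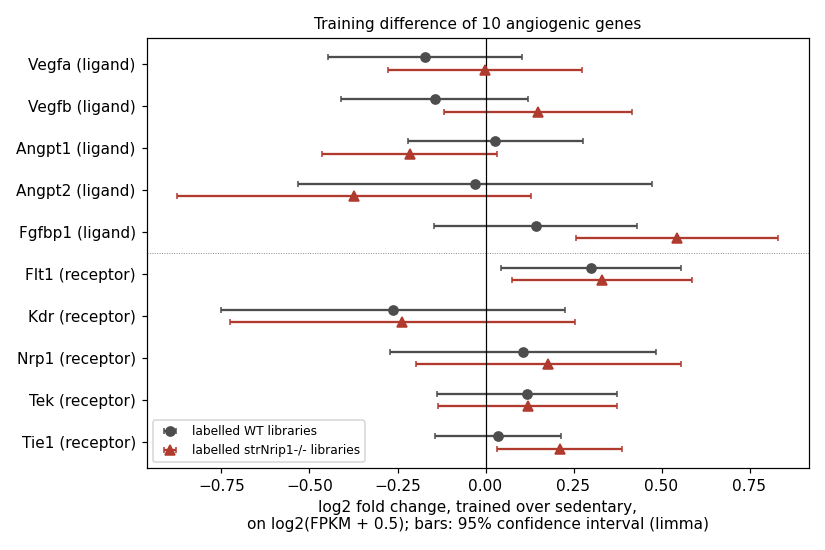
Log2 fold change of trained over sedentary on log2(FPKM + 0.5) for each member, in labelled WT (circles) and labelled strNrip1-/- (triangles) libraries, with 95% confidence intervals from limma; ligands stand above the dotted line. Flt1 lies above 0 in both (0.30 and 0.33), and Fgfbp1 at 0.14 and 0.54.

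The balance between ligand and receptor was described by ratios of FPKM within a library. The gene-level Flt1 value does not separate the soluble form from the membrane receptor. Vegfa over Flt1 was 12.6 to 14.1 in labelled WT sedentary and 8.19 to 11.1 in labelled WT trained libraries. In labelled strNrip1-/- libraries it was 12.3 to 15.8 when sedentary and 10.02 to 11.7 when trained. The ratio was thus lower in every trained library than in every sedentary library of its labelled genotype, and it overlapped between genotypes in both states. Vegfa over Kdr overlapped in all these comparisons, with group means between 15.6 and 19.5. Angpt2 over Angpt1 ranged from 0.214 to 0.708 and overlapped throughout. The summed level of the 5 receptors averaged 42.1 ± 1.60 and 45.02 ± 3.47 FPKM in labelled WT and 50.6 ± 5.02 and 56.0 ± 2.54 FPKM in labelled strNrip1-/- libraries (sedentary and trained, SD, n = 3), and it did not overlap between genotypes in either state. These ratios were not tested.

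Members also varied together among libraries of one group. The correlations below are over 12 libraries that share their groups, tissue composition and scaling, and are given as a description. Kdr and Nrp1 correlated at r = 0.60 over all libraries and at 0.86 after group means were removed. Flt1 and Kdr ran opposite, at -0.45 over all libraries and -0.67 within groups, with labelled WT trained replicate 2 at the highest Flt1 of its group (16.6 FPKM) and the lowest Kdr of all libraries (5.26 FPKM). Fgfbp1 and Tie1 correlated at 0.94 over all libraries but at 0.35 within groups. Vegfa kept its correlation within groups with Fgfbp1 (0.75 over all, 0.74 within) and with Tie1 (0.77 and 0.72).

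**Figure D5:**
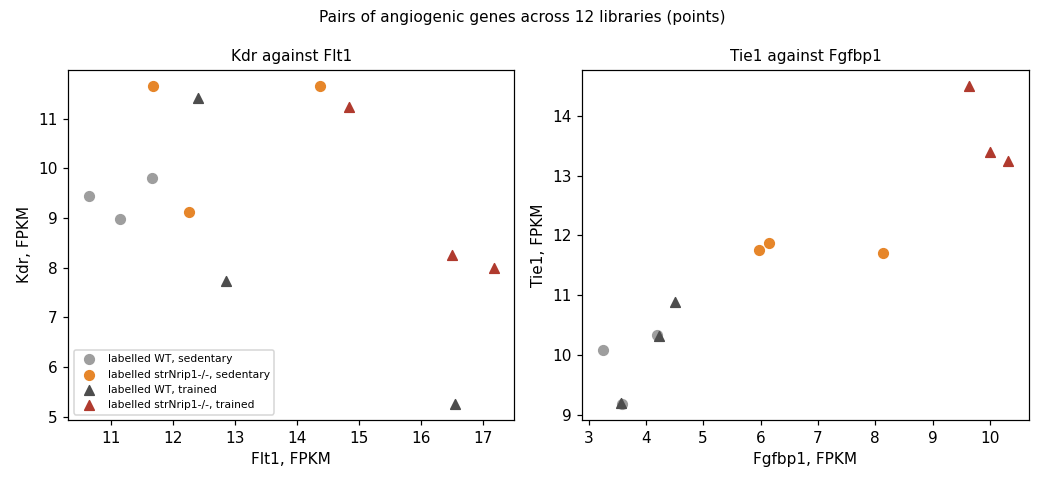
FPKM of Kdr against Flt1 (left) and of Tie1 against Fgfbp1 (right) in the 12 libraries, marked by group. Kdr was lowest (5.26 FPKM) in a labelled WT trained library with high Flt1, and the libraries labelled strNrip1-/- occupied the upper right of the Tie1 and Fgfbp1 plot.

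Over all tested genes, the pattern most like that of Fgfbp1 across the 12 libraries was that of Fndc5 (r = 0.976), followed by Vwa8 (0.9749) and Myom3 (0.971). Fndc5 encodes the precursor of the secreted peptide irisin, and its group means were 18.1 and 22.2 FPKM in labelled WT and 33.1 and 46.8 FPKM in labelled strNrip1-/- libraries (sedentary and trained). Most like Vegfa was Mto1 (0.919), which acts in the modification of mitochondrial tRNA, with Xkrx (0.907) and Txnrd1 (0.894) next. Most like Kdr were Tnfrsf19 (0.971), Srcin1 (0.931) and Cavin2 (0.924), the last a caveolar coat protein abundant in endothelium.

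Other genes of the same pathways were counted in the same way. Of 18 further genes of VEGF and angiopoietin signaling tested, 0 were called for genotype averaged over training (limma), with 3 at an unadjusted p-value under 0.05, as 24.1% of all genes were, and a median log2 fold change of 0.04. In trained libraries 1 was called higher, where 3.21% of all genes were. This was Nos3, the endothelial nitric oxide synthase (0.35, adjusted p = 0.0371). Of 15 FGF pathway genes, 2 were called higher and 2 lower on average, where 4.9% and 3.91% of all genes were. Fgf1, a ligand that Fgfbp1 can release, was higher (0.43, adjusted p = 0.0191), and so was the feedback inhibitor Spry1 (0.31, adjusted p = 0.0254). Fgf2, the other ligand best known as cargo of Fgfbp1, was lower (-0.40, adjusted p = 0.00543), as was the heparan sulfate proteoglycan Gpc1 (-0.31, adjusted p = 0.00127). Fgf2 stood at 1.497 ± 0.0344 and 1.66 ± 0.102 FPKM in labelled WT and at 1.04 ± 0.0586 and 1.11 ± 0.0502 FPKM in labelled strNrip1-/- libraries (sedentary and trained, SD, n = 3).

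Of 13 genes of tip cells and Notch signaling, which set which endothelial cell leads a sprout, 1 was called higher for genotype on average. Among all genes tested, 4.9% were. Dll4, the Notch ligand induced by VEGF in tip cells, had a log2 fold change of 0.09 (adjusted p = 0.773) in sedentary and 0.51 (adjusted p = 0.0154) in trained libraries, and 0.30 (adjusted p = 0.0223) averaged. The difference between these states, the interaction, was 0.42 (adjusted p = 0.589). Notch4, an endothelial Notch receptor, was called for training averaged over genotypes (0.65, adjusted p = 0.0475). Of 13 genes that regulate Vegfa through oxygen sensing or estrogen-related receptors, 5 were called higher for genotype on average, where 4.9% of all genes were, and none lower. These were Egln1, Epas1, Esrra, Esrrb and Ppargc1b, with log2 fold changes from 0.35 (Epas1) to 0.87 (Ppargc1b). In all 6 of the 13 lay above 0, and the median over the 13 was -0.05. This list too was chosen with earlier results known, Egln1 and Epas1 already reported as raised, so its share is not a test. Ppargc1b encodes a coactivator of these receptors, and its levels averaged 3.60 ± 0.920 and 3.15 ± 1.30 FPKM in labelled WT and 5.61 ± 1.54 and 7.54 ± 1.83 FPKM in labelled strNrip1-/- libraries (sedentary and trained).

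Markers of other cells were read beside the members. Of 12 pericyte and smooth muscle markers, 3 were called higher and 1 lower for genotype on average, where 4.9% and 3.91% of all genes were. The median log2 fold change of the 12 was 0.20. Their sums were 232.1 to 256.9 FPKM over libraries labelled WT and 258.3 to 278.9 FPKM over those labelled strNrip1-/-, and none was under 0.5 FPKM. Of 10 fast muscle markers, 5 were called lower (median -0.30), where 3.91% of all genes were. Myh4, the myosin of the fastest fibers, averaged between 7401 and 10540 FPKM in the 4 groups, as a fast-twitch muscle would give. All 5 blood markers lay above 0 for genotype (median 0.26) and below 0 for training (median -0.47), with 0 called by limma and 1 at an unadjusted p-value under 0.05 in each averaged comparison, and with sums from 723.3 to 1834 FPKM that overlapped. By limma, 0 of 8 fibroblast, 8 macrophage, 4 lymphatic, 2 satellite cell and 7 slow muscle markers were called for genotype, and 0, 1, 0, 1 and 1 of them had an unadjusted p-value under 0.05 on average. For the fibroblast markers this average covers opposite signs. In sedentary libraries 8 of 8 lay above 0 (median 0.11), and in trained libraries 0 of 8 did (median -0.26). Of the macrophage markers, 5 of 8 lay above 0 in sedentary and 1 of 8 in trained libraries. Of 7 adipocyte markers, 6 lay above 0 for genotype on average (median 0.52), and 4 had an unadjusted p-value under 0.05, as had 24.1% of all genes. The only call was of the one that lay below 0, Car3, which muscle also expresses, where 3.91% of all genes were called lower. In sedentary libraries 6 lay above 0 as well, and 5 had an unadjusted p-value under 0.05, as had 16.3% of all genes. Within each state 1 was called lower and 0 higher, where 1.59% (sedentary) and 2.77% (trained) of all genes were called lower. The part of these lists in the members' results was not tested.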

How the data were processed

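The authors quantified transcripts with Salmon 1.10.2 on mm10 and summed them to genes with tximport, per the study's methods. The values deposited by the authors and used here are FPKM per gene and library, already scaled between libraries: column sums ran from 1029000 to 1325000, but medians of the gene-wise ratios to a reference library were 0.996 to 1.00. How FPKM was computed is not given in the sources used here. The authors' log2 fold changes and adjusted p-values (DESeq2 1.44.0), deposited in the same table, were not used.

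On a log2(FPKM + 0.5) scale, 12744 genes averaging 0.5 FPKM or more were fitted over all 12 libraries with 4 group means (limma 3.58.1, R 4.3.3, eBayes with a mean-dependent prior, two-sided, Benjamini-Hochberg within a contrast). The thresholds are the study's. The fit was tested on simulated data. Members, lists and tests were chosen with earlier results of these data known. Named were all 10 members, Nrip1, up to 12 called genes of 4 pathway lists with the smallest adjusted p-values, and the 3 genes most correlated with Vegfa, Kdr and Fgfbp1. Myh4, Cdh5, Sox17 and Car3 were named after their values were seen. Depth was estimated from genes with a single transcript, where 99.1% to 99.6% of low values lay within 0.15 of a whole fragment (30% by chance). Gene coordinates are from GENCODE M21, promoter windows from RefSeq. No pair of replicates shared identical values. Alternatives were other pseudocounts, filters, scalings and variance priors, the libraries compared alone, a replicate block and each library left out.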

Additional observations from a re-analysis of the deposited data

How the results depend on the processing

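Under every alternative, no member was called for training in libraries labelled WT, for training averaged over genotypes or for the interaction. In the other comparisons the count of members called moved under some alternatives. Fitted on only the libraries compared, it went from 1 to 0 members called in sedentary libraries and from 2 to 1 in trained libraries, where fewer libraries enter the spread. With an equal sum of FPKM it went from 2 to 4 members called in trained libraries (Vegfa and Vegfb were added), from 0 to 1 for training in libraries labelled strNrip1-/- (Fgfbp1) and from 4 to 2 for the averaged genotype difference (Vegfa and Nrp1 were lost). Leaving out each library in turn gave 1 to 3 members called in trained libraries and 2 to 5 for the averaged genotype difference. The averaged calls of Fgfbp1 and Tie1 held in all 12 of these fits, and those of Vegfa and Nrp1 were lost in 8 of 12 each. The averaged call of Vegfa was also lost with quantile normalization (0.31) and without the trend in the variance prior (0.33), and that of Nrp1 with an equal sum of nuclear FPKM (0.52); the cause was not tested.

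Replicate numbers did not pair the libraries: deviations of same-numbered libraries correlated above 0.1 in 5 of 18 pairs (range -0.10 to 0.24), and 4 of 12 libraries correlated best with their own number. With a replicate block, members called were 1 in sedentary libraries, 3 in trained libraries (Nrp1 was added) and 3 for the averaged genotype difference (Vegfa was lost), and 0 for training and the interaction, as without it.

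None of the differences that turned sign was called; the largest of them were those of Kdr for genotype in trained libraries (0.21 over all libraries) and of Nrp1 for training in libraries labelled WT (0.11). With an equal sum of FPKM these were the genotype differences of Vegfb (-0.12) and Angpt1 (-0.0784) in sedentary libraries and of Angpt2 in trained libraries (0.0001919), the labelled WT training differences of Angpt1 (-0.0097) and Tie1 (-0.0075), and the labelled strNrip1-/- training difference of Vegfa (0.17). With an equal sum of nuclear FPKM they were the interactions of Flt1 (-0.0088), Kdr (-0.0180) and Tek (-0.0376) and the averaged training difference of Vegfb (-0.0053). With quantile normalization they were the interactions of Kdr (-0.0161) and Tek (-0.0079), the labelled WT training difference of Angpt2 (0.0169) and the averaged training difference of Vegfb (-0.0072). Without single libraries, the genotype differences ran from -0.0560 to 0.18 (Vegfb, sedentary), -0.10 to 0.0112 (Angpt2, trained) and -0.0512 to 0.47 (Kdr, trained). The labelled WT training differences ran from -0.0233 to 0.0563 (Angpt1), -0.20 to 0.10 (Angpt2), -0.0365 to 0.27 (Nrp1) and -0.0160 to 0.10 (Tie1), that of Vegfa in labelled strNrip1-/- from -0.0551 to 0.0402 and that of Vegfb averaged from -0.0695 to 0.0468. Interactions ran from -0.0433 to 0.16 (Flt1), -0.23 to 0.29 (Kdr), -0.0907 to 0.22 (Nrp1) and -0.0864 to 0.0890 (Tek).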
